A study of Mus musculus with 9 samples.

Results

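Glycogen synthesis and breakdown were followed in the perinatal mouse heart through 9 genes, which were picked by symbol as enzymes of the pathway from a deposited table of 48820 genes. Of these 9 genes, 4 act in synthesis (*Gys1*, *Gyg*, *Gbe1* and *Ugp2*) and 5 in breakdown (*Pygm*, *Pygb*, *Pygl*, *Phka1* and *Phkg1*). RNA-seq was performed on 9 hearts of untreated wild-type (WT) C57BL/6J mice, an inbred strain, with 3 biological replicates each at embryonic day 18.5 (E18.5d) and at postnatal days 1 (P1d) and 7 (P7d). Every mouse is labelled male. The labels do not say whether a sample was 1 heart or several, and each is called a heart here. The values are FPKM, in which a gene's fragments are divided by its length in kilobases and by the mapped fragments in units of 1e6, so that levels of different genes can be set side by side. The comparisons address how glucose storage and release are expressed as the heart passes from fetal to postnatal life.

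Glycogen is a branched polymer of glucose. UDP-glucose pyrophosphorylase supplies the activated sugar, glycogenin starts the chain on itself, glycogen synthase lengthens it and the branching enzyme adds the branch points. Glycogen phosphorylase cuts glucose units off as glucose 1-phosphate after phosphorylase kinase has switched it on. The fetal heart is known for its large glycogen store, which falls after birth as the heart turns from glucose to fatty acids.

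From E18.5d to P7d all 4 synthesis genes fell, while the breakdown genes moved in different directions. By the tests given below, 36.9% of all genes tested were called lower in this comparison, and the *Ugp2* call depended on the scaling. *Gyg* fell to 0.363 times its E18.5d mean, *Gbe1* to 0.534 times, *Gys1* to 0.542 times and *Ugp2* to 0.807 times. Among the phosphorylases, the muscle isozyme gene *Pygm* rose to 1.24 times its E18.5d mean, the liver isozyme gene *Pygl* fell to 0.276 times, and the brain isozyme gene *Pygb* stood at 157 ± 8.82 FPKM (SD, n = 3) against 161 ± 2.15 FPKM. Of the phosphorylase kinase subunits, *Phkg1* rose to 1.81 times and *Phka1* stood at 11.1 ± 0.760 against 10.8 ± 0.666 FPKM. The timing also differed between genes. *Gys1* fell between E18.5d and P1d, whereas *Gyg*, *Gbe1* and *Pygl* fell between P1d and P7d and *Pygb* was highest at P1d.

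The depth read from the steps between low FPKM values was 25.5 to 45.0 times 1e6 fragments per heart, and at least 88.3% of those values came out as whole fragments. All 7 cardiomyocyte markers were present, and they summed to 19044 to 19598 FPKM at E18.5d, to 22050 to 24767 at P1d and to 23355 to 24548 at P7d. Every E18.5d sum lay below the later ones, but the markers did not move together. *Myh6* was at 3188.81 to 3260.00 FPKM at E18.5d and 7980.34 to 8563.95 at P7d, and *Tnni3*, *Ryr2* and *Pln* were also lowest at E18.5d. *Tnnt2* was lowest at P7d, at 2777.74 to 3197.87 FPKM against 4278.32 to 4510.22 at E18.5d. *Actc1* overlapped between all stages, and *Ttn* at P1d overlapped both other stages. Against their male label, 4 hearts had *Xist*, the RNA of the inactive X chromosome, at 58.0 to 97.0 FPKM and the Y-linked gene *Ddx3y* listed at 0. They are E18.5d replicates 1 and 3 and P7d replicates 2 and 3, so that P1d has none of them. Liver markers were highest in P1d replicate 2, where *Alb* reached 15.9 FPKM, and no other heart exceeded 5.86 FPKM. The summed neutrophil markers were 46.9 to 69.7 FPKM at P1d against 5.85 to 11.5 at E18.5d and 15.1 to 19.4 at P7d. Fibroblast markers summed to 507 to 515 FPKM in E18.5d hearts, 408 to 565 in P1d hearts and 692 to 710 in P7d hearts, and endothelial markers to 260 to 295, 308 to 341 and 378 to 392. Smooth muscle markers summed to 716 to 885, 693 to 797 and 552 to 666 FPKM. The part of these marker differences in the gene changes was not tested. In whole hearts, fewer cells of a type and less RNA per cell cannot be told apart.

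The tests were made with limma on log2(FPKM + 1) over the 13618 genes whose mean reached 1 FPKM, which kept all 9 genes, and adjusted over all genes tested with a threshold of 0.05. The added 1 shrinks the change of weakly expressed genes such as *Phkg1*. From E18.5d to P7d 2 of the 9 genes rose and 5 fell, where 12.5% of all genes tested were called higher and 36.9% lower. From E18.5d to P1d 2 rose and 2 fell, beside 18.4% and 27.6% of all genes. From P1d to P7d 1 rose and 4 fell, beside 15.5% and 28.6%. Counted by hearts that did not overlap, 2 genes were above and 5 below E18.5d by P7d (16.9% and 45.6% of all genes), 2 above and 3 below by P1d (22.1% and 32.3%), and 1 above and 4 below between P1d and P7d (19.3% and 34.3%).

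The split between rises and falls depended on how the FPKM columns were scaled. Rescaling them by median of ratios moved the median log2 change of all genes between E18.5d and P7d from -0.17 to 0.01, and 23.2% of genes were then called higher and 18.7% lower. On that scale 3 of the 9 genes rose and 4 fell from E18.5d to P7d, as *Phka1* passed the test and *Ugp2* did not. The median log2 change of the 9 genes was -0.31 on the deposited scale and -0.10 after rescaling. From E18.5d to P1d the counts after rescaling were 2 and 2 (23.6% and 22.3% of all genes), and from P1d to P7d 3 rose and 4 fell (23.5% and 18.2%).

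**Figure D1:**
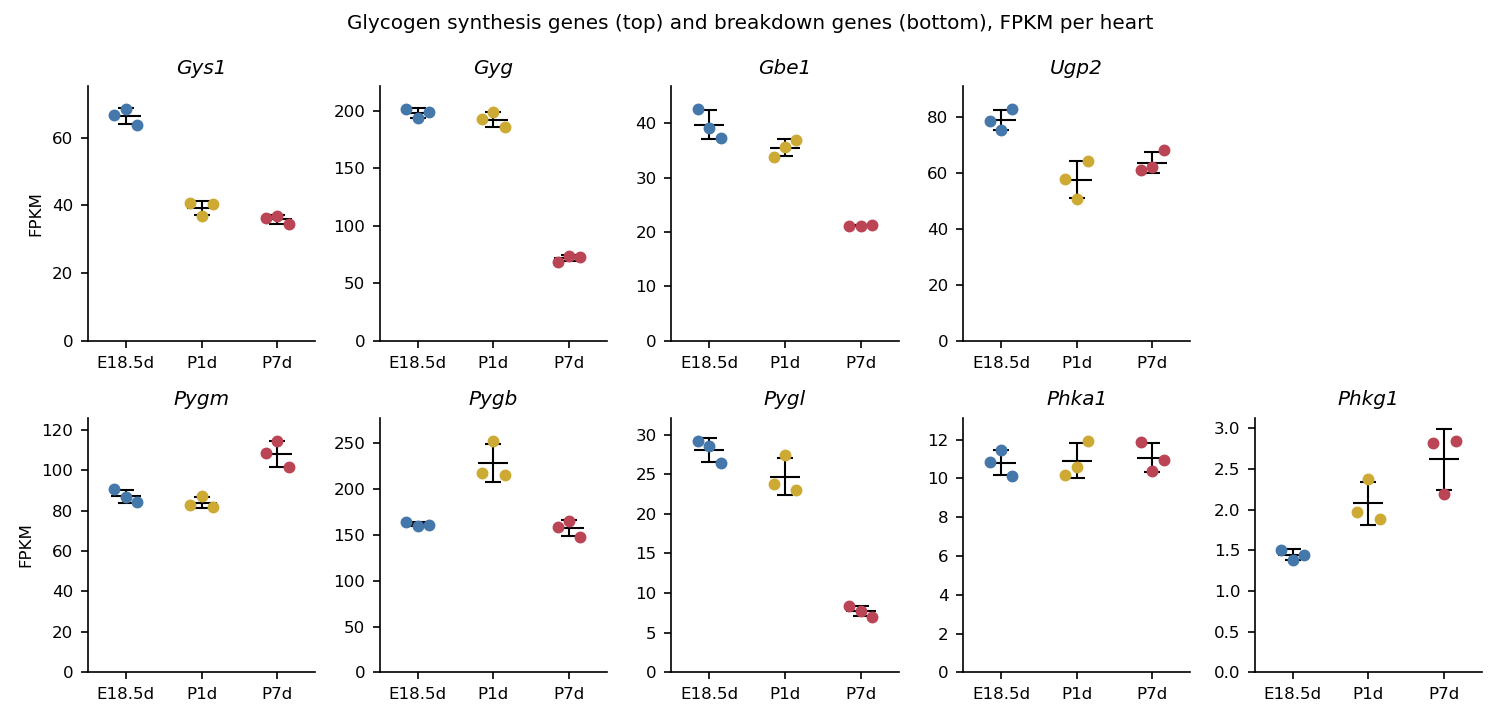
FPKM of the 9 genes in each heart at E18.5d, P1d and P7d, with synthesis genes in the top row and breakdown genes in the bottom row. Points are hearts, the wide dash and bars are the mean and SD of 3 hearts, and each axis starts at 0. *Gys1* drops at P1d, *Gyg*, *Gbe1* and *Pygl* drop at P7d, *Pygb* peaks at P1d and *Pygm* is highest at P7d.

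*Gys1* (ENSMUSG00000003865.16, chr7:45434844-45456619 of GRCm38, plus strand) encodes the muscle form of glycogen synthase. Its level was 66.69, 68.45 and 63.76 FPKM in the E18.5d hearts, 40.79, 36.85 and 40.31 FPKM at P1d and 36.31, 37.04 and 34.47 FPKM at P7d. All E18.5d hearts lay above all later ones, and the P1d and P7d hearts overlapped. The log2 change was -0.74 (SE 0.0601) at P1d against E18.5d, with an adjusted p of 1.9e-05 by limma. It was -0.87 (SE 0.0601, adjusted p = 6.42e-06) at P7d against E18.5d. Between P1d and P7d the change of -0.13 (95% interval -0.26 to 0.01) did not pass the test (adjusted p = 0.118), and it passed without P1d replicate 2 (-0.17, adjusted p = 0.0428). The liver synthase gene *Gys2* was at most 0.08 FPKM in any heart and was not tested.

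RefSeq sequence before the *Gys1* and *Gbe1* starts is shown because these 2 synthesis genes fell at different times. The windows are the 250 bases before the RefSeq starts, and only bases outside the untranslated exons of GENCODE M21 are printed. For *Gys1*, whose window overlaps the first exons of *Ruvbl2* on the other strand, these are the 129 bases nearest the start, chr7:45434710-45434838 on the plus strand. For *Gbe1* they are all 250 bases, chr16:70313699-70313948 on the plus strand of GRCm38.p6. Both are written 5′ to 3′ with capitals for CCAAT and for the GC box GGGCGG, on either strand.
Gys1: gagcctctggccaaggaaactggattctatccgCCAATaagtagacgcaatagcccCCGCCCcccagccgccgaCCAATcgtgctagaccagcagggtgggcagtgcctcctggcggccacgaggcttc
Gbe1: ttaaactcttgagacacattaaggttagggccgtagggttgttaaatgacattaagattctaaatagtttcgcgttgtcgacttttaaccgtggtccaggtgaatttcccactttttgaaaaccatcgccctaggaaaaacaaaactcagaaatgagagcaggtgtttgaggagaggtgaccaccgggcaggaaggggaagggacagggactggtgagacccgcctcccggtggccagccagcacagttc
The printed *Gys1* stretch holds 2 matches to CCAAT and 1 to GGGCGG, and its whole window holds 4 and 2. The *Gbe1* stretch holds 0 matches to either motif. Among the 32851 RefSeq promoter windows of 250 bases, 33.8% hold CCAAT and 32.7% hold GGGCGG. All 9 genes matched a window, and *Ugp2* matched 2. The *Gyg* window is not printed because 181 of its 250 bases lie in untranslated exons of GENCODE M21, which leaves 49. The *Gyg* start differs between GENCODE M21 and RefSeq. These matches describe the letters only.

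*Gyg* (ENSMUSG00000019528.18, chr3:20122084-20155317, minus strand) encodes glycogenin, the protein primer of the glycogen particle. It was at 201.37, 193.53 and 199.11 FPKM at E18.5d, at 192.49, 199.06 and 185.47 FPKM at P1d and at 68.90, 73.50 and 73.35 FPKM at P7d. The E18.5d and P1d hearts overlapped and every P7d heart lay far below them. Between P1d and P7d the log2 change was -1.41 (SE 0.0524, adjusted p = 1.66e-06 by limma), and between E18.5d and P7d it was -1.45 (SE 0.0524, adjusted p = 1.84e-07). The change from E18.5d to P1d was -0.04, with a 95% interval of -0.16 to 0.08 (adjusted p = 0.538). At E18.5d *Gyg* had the highest level of the 9 genes, and at P7d it ranked below *Pygb* and *Pygm* with no overlap between the hearts.

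*Gbe1* (ENSMUSG00000022707.16, chr16:70313949-70569716, plus strand) encodes the branching enzyme. Its level was 42.58, 39.20 and 37.30 FPKM at E18.5d, 33.88, 35.62 and 36.99 FPKM at P1d and 21.10, 21.19 and 21.34 FPKM at P7d. The P7d hearts had an SD of 0.121 FPKM (n = 3) and lay below all others. The log2 change was -0.72 (SE 0.0627) at P7d against P1d, with an adjusted p of 4.38e-05 by limma, and -0.87 (adjusted p = 8.16e-06) at P7d against E18.5d. At P1d all 3 hearts were below the lowest E18.5d heart, but the change of -0.16 did not pass the test (adjusted p = 0.0676). It passed without E18.5d replicate 3 (-0.20, adjusted p = 0.0428).

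*Ugp2* (ENSMUSG00000001891.16, chr11:21321138-21371201, minus strand) encodes UDP-glucose pyrophosphorylase, which also serves other sugar pathways. It was at 78.60, 75.40 and 82.79 FPKM at E18.5d, 57.84, 50.81 and 64.32 FPKM at P1d and 60.97, 61.99 and 68.07 FPKM at P7d. The E18.5d hearts were the highest, and the P1d and P7d hearts overlapped. The log2 change was -0.45 (SE 0.0866, adjusted p = 0.0024 by limma) at P1d and -0.31 (adjusted p = 0.0158) at P7d, both against E18.5d. The P7d call was lost with median of ratios, at -0.10 (adjusted p = 0.427 by limma). It was also lost with equal column sums (-0.35, adjusted p = 0.0775), quantile normalization (-0.17, 0.19) and equal sums of protein-coding nuclear genes (-0.14, 0.303). The same held without E18.5d replicate 3 (adjusted p = 0.0551), P7d replicate 1 (0.0548) or P7d replicate 2 (0.0524). From P1d to P7d the change was 0.15 (adjusted p = 0.2), and it passed at 0.28 (adjusted p = 0.0361) with median of ratios and at 0.23 (adjusted p = 0.0467) without P1d replicate 3.

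The 3 phosphorylase genes had separate courses. *Pygm* (ENSMUSG00000032648.14, chr19:6384399-6398459, plus strand), which encodes the muscle isozyme, was at 90.42, 86.56 and 84.25 FPKM at E18.5d, 82.89, 87.08 and 81.78 FPKM at P1d and 108.32, 114.54 and 101.67 FPKM at P7d. The P7d hearts lay above all others, and the E18.5d and P1d hearts overlapped. The log2 change was 0.36 (SE 0.0599, adjusted p = 0.00124 by limma) at P7d against P1d and 0.31 (SE 0.0599, adjusted p = 0.00235) at P7d against E18.5d. At P1d against E18.5d it was -0.05 (95% interval -0.19 to 0.08, adjusted p = 0.499). The table repeats these *Pygm* values under another identifier, which was counted once with them.

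*Pygb* (ENSMUSG00000033059.7, chr2:150786735-150831758, plus strand), which encodes the brain isozyme, had the highest level of the 3 in every heart. It was at 163.58, 159.34 and 160.89 FPKM at E18.5d, 217.38, 252.46 and 214.56 FPKM at P1d and 158.87, 165.46 and 147.99 FPKM at P7d. Each P1d heart lay above every heart of the other stages, which overlapped with each other. The rise at P1d was 0.49 (SE 0.0724, adjusted p = 0.000539 by limma) on the log2 scale, and the fall from P1d to P7d was -0.53 (adjusted p = 0.000432). At P7d against E18.5d the change was -0.04 with a 95% interval of -0.20 to 0.13 (adjusted p = 0.707), and with median of ratios 0.18 (adjusted p = 0.0993). The neutrophil markers were also highest at P1d, and their part in the *Pygb* level was not tested. Brain and glia markers summed to 8.29 to 10.2 FPKM over all hearts, and 3 of the 5 were under 1 FPKM throughout.

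*Pygl* (ENSMUSG00000021069.16, chr12:70190811-70231488, minus strand), which encodes the liver isozyme, had the largest fall of the 9 genes. Its level was 29.23, 28.60 and 26.37 FPKM at E18.5d, 23.75, 27.38 and 22.98 FPKM at P1d and 8.41, 7.79 and 7.04 FPKM at P7d. Every P7d heart was below every earlier heart, and the E18.5d and P1d hearts overlapped through P1d replicate 2. The log2 change was -1.55 (SE 0.0860, adjusted p = 6.27e-06 by limma) at P7d against P1d and -1.73 (SE 0.0860, adjusted p = 9.3e-07) at P7d against E18.5d. At P1d against E18.5d it was -0.18 (adjusted p = 0.114), and without P1d replicate 2 it passed the test at -0.25 (adjusted p = 0.0361). That heart had the highest liver markers, whose part in its *Pygl* level was not tested. The summed liver markers were 1.66 to 9.42 FPKM at E18.5d, 1.38 to 33.3 FPKM at P1d and 0.730 to 1.15 FPKM at P7d.

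Sequence before the RefSeq starts of *Pygm* and *Pygl* is shown because these phosphorylase genes moved in opposite directions by P7d. The stretches are chr19:6384158-6384398 on the plus strand and chr12:70227684-70227933 on the minus strand of GRCm38.p6, again with capitals for CCAAT and GGGCGG on either strand. The starts differ between annotations. The RefSeq start of *Pygm* lies 9 bases downstream of its GENCODE M21 start, and those 9 bases are left out. The RefSeq start of *Pygl* lies 3805 bases downstream of the start of the GENCODE M21 gene, and all 250 bases shown lie inside that gene.
Pygm: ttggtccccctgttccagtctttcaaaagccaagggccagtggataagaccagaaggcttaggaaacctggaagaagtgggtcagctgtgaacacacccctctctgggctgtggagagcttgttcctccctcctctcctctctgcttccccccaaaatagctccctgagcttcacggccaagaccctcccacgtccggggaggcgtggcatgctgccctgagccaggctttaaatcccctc
Pygl: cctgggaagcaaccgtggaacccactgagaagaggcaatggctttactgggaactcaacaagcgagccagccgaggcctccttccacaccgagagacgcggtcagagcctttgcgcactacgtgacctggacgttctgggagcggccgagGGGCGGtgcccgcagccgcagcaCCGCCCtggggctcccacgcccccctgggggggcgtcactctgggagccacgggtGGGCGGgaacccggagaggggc
The 250-base *Pygm* window holds 0 matches to CCAAT or GGGCGG, and 2 to the E-box CANNTG, which 66.2% of all windows hold. The *Pygl* stretch holds 3 matches to GGGCGG, 0 to CCAAT and 0 to CANNTG. Both hold 1 match to ACGTG, found in 16.6% of windows and also in those of *Pygb* and in 1 of the 2 of *Ugp2*.

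Shares of phosphorylase FPKM within a heart do not depend on how its FPKM column was scaled. *Pygm* made up 31.5% ± 0.448 (SD, n = 3) of the summed phosphorylase FPKM in E18.5d hearts, 25.0% ± 1.08 in P1d hearts and 39.6% ± 0.25 in P7d hearts. *Pygb* made up 58.4% ± 0.797, 67.7% ± 0.962 and 57.6% ± 0.0894. *Pygl* made up 10.2% ± 0.383, 7.33% ± 0.133 and 2.83% ± 0.190. The sum of the 3 was 276 ± 6.09 FPKM in E18.5d hearts, 337 ± 26.2 in P1d hearts and 273 ± 15.7 in P7d hearts. The *Pygm* shares of the 3 stages did not overlap, with an exact two-sided permutation p of 0.1 for each pair of stages, the smallest that 3 hearts against 3 can give. The *Pygm* to *Gys1* ratio sets the muscle phosphorylase beside the muscle synthase, and leaves out *Pygb*, which had the largest share, and *Pygl*. This ratio averaged 1.31 ± 0.0461 in E18.5d hearts, 2.14 ± 0.192 in P1d hearts and 3.01 ± 0.0747 in P7d hearts, again with no overlap between stages and an exact p of 0.1 for each pair. With Benjamini-Hochberg adjustment over the 12 such comparisons these exact p-values became 0.12.

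**Figure D2:**
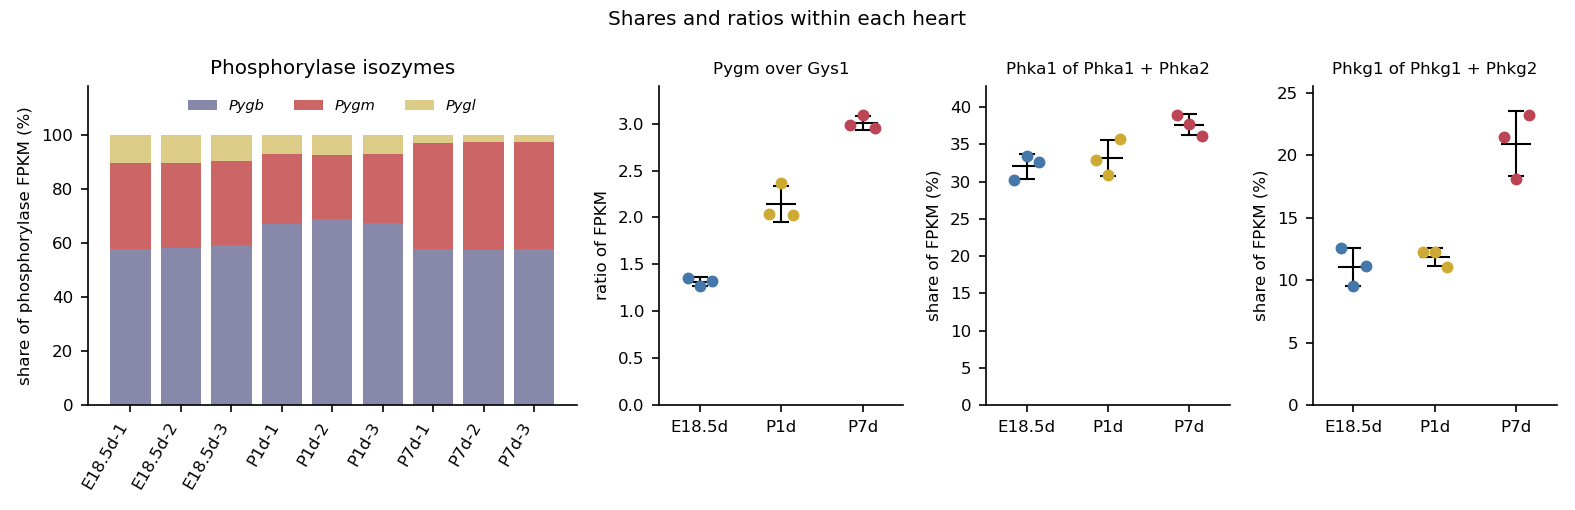
Left, share of summed phosphorylase FPKM taken by *Pygb*, *Pygm* and *Pygl* in each heart (%, stacked bars from 0). Right, the ratio of *Pygm* to *Gys1* FPKM and the shares (%) of *Phka1* in *Phka1* plus *Phka2* and of *Phkg1* in *Phkg1* plus *Phkg2*, with points for hearts and the mean and SD of 3 hearts. The *Pygm* to *Gys1* ratio climbs from 1.31 at E18.5d to 3.01 at P7d, and the *Pygl* share shrinks to 2.83%.

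Phosphorylase kinase is built of alpha, beta, gamma and delta subunits, of which gamma is catalytic and delta is calmodulin. *Phka1* (ENSMUSG00000034055.16, chrX:102513975-102644246, minus strand), the muscle alpha subunit gene, was at 10.86, 11.47 and 10.14 FPKM at E18.5d, 10.20, 10.61 and 11.95 FPKM at P1d and 11.88, 10.37 and 10.97 FPKM at P7d. All 3 stages overlapped. The log2 change at P7d against E18.5d was 0.03 (95% interval -0.15 to 0.21, adjusted p = 0.784 by limma), and with median of ratios it passed at 0.22 (adjusted p = 0.0419). The changes involving P1d were 0.01 (adjusted p = 0.929) against E18.5d and 0.02 (adjusted p = 0.866) from P1d to P7d. *Phka1* lies on the X chromosome. In both stages with hearts that had *Xist*, the heart without it had the highest *Phka1* value, a pattern that was not tested.

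*Phkg1* (ENSMUSG00000025537.12, chr5:129863421-129898549, minus strand), the muscle gamma subunit gene, had the lowest level of the 9 genes. It was at 1.51, 1.38 and 1.45 FPKM at E18.5d, 1.97, 2.38 and 1.89 FPKM at P1d and 2.82, 2.19 and 2.85 FPKM at P7d. All E18.5d hearts lay below all later hearts, and the P1d and P7d hearts overlapped. The log2 change was 0.56 (SE 0.111, adjusted p = 0.00263 by limma) at P7d and 0.33 (SE 0.111, adjusted p = 0.0354) at P1d, both against E18.5d. From P1d to P7d it was 0.23 (adjusted p = 0.118), and with median of ratios it passed at 0.33 (adjusted p = 0.0343). The P1d call was lost without any of the E18.5d hearts and without P1d replicate 1 or 2, with adjusted p from 0.0578 to 0.102, and with no filter on low values (0.0715). *Chchd2* (157.57 to 209.51 FPKM) lies across the *Phkg1* gene on the same strand, with no overlap of exons. The exons of *Phkg1* overlap those of *Sumf2* on the other strand (3.70 to 6.05 FPKM), and those of *Gys1* overlap *Ruvbl2* (12.4 to 27.3 FPKM). Whether strand was used in the counting is not given in the sources used here, so that reads there cannot be told apart.

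Other subunit genes had higher levels than the muscle forms. *Phka2*, the liver alpha subunit gene, was at 25.08, 22.88 and 20.96 FPKM in the E18.5d hearts, 20.78, 23.69 and 21.53 FPKM in the P1d hearts and 18.62, 17.08 and 19.38 FPKM in the P7d hearts. *Phka1* made up 32.1% ± 1.65 of alpha subunit FPKM in E18.5d hearts, 33.2% ± 2.39 in P1d hearts and 37.6% ± 1.41 in P7d hearts. The P7d hearts lay above the others (exact two-sided permutation p = 0.1 against each stage, 0.12 adjusted), and E18.5d and P1d overlapped (exact p = 0.5). *Phkg2*, the liver gamma subunit gene, had means of 11.7 ± 1.31, 15.4 ± 1.48 and 9.87 ± 0.451 FPKM over the stages in that order. Its log2 change was 0.37 (adjusted p = 0.00955 by limma) at P1d against E18.5d and -0.59 (adjusted p = 0.000913) from P1d to P7d. At P7d against E18.5d it was -0.22 and did not pass (adjusted p = 0.0729). The exons of *Phkg2* overlap those of *Ccdc189* on the other strand (6.23 to 8.79 FPKM). *Phkg1* made up 11.1% ± 1.52 of gamma subunit FPKM in E18.5d hearts, 11.9% ± 0.698 in P1d hearts and 20.9% ± 2.61 in P7d hearts. The P7d hearts lay apart (exact p = 0.1 against each stage, 0.12 adjusted), and E18.5d and P1d overlapped (exact p = 0.7). *Phkb*, the beta subunit gene, was at 32.8 ± 1.76, 36.6 ± 4.89 and 31.7 ± 1.02 FPKM and passed the test in no comparison, with log2 changes of 0.15 (adjusted p = 0.2 by limma) at P1d and -0.04 at P7d against E18.5d and of -0.19 at P7d against P1d.

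**Figure D3:**
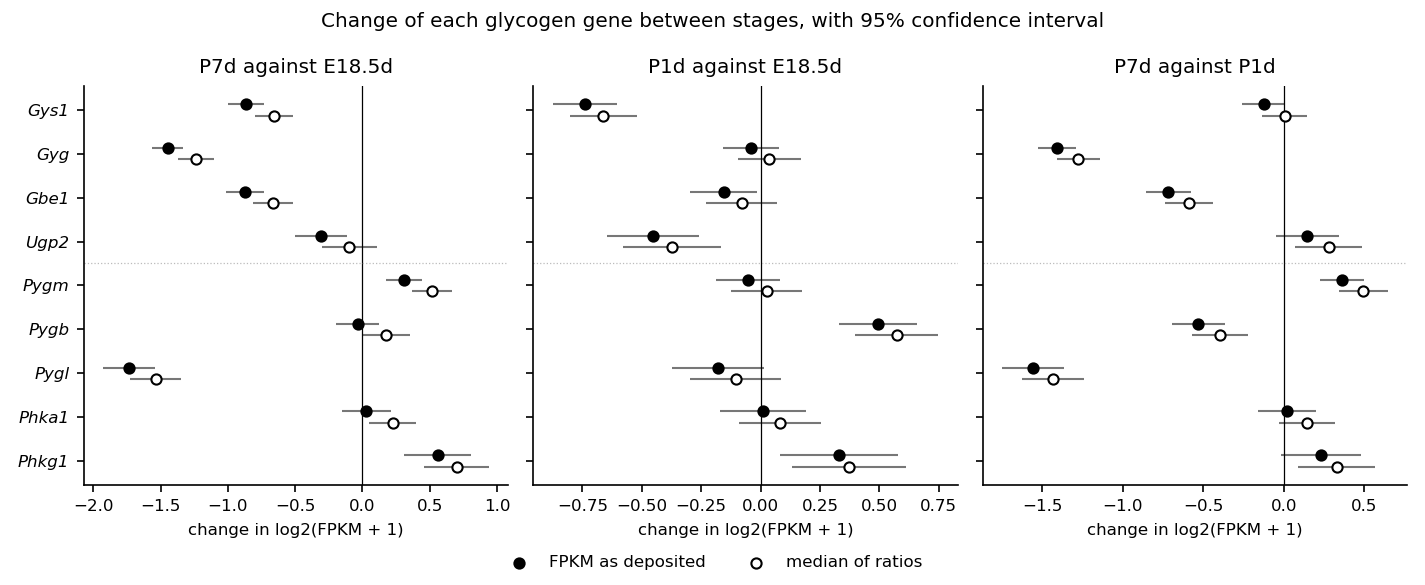
Change of each of the 9 genes in log2(FPKM + 1) for the 3 comparisons, with 95% confidence intervals from limma. Filled points use FPKM as deposited and open points FPKM rescaled by median of ratios. *Gyg*, *Gbe1* and *Pygl* lie left of 0 in both comparisons with P7d on either scale, *Gys1* in both comparisons with E18.5d, and the rescaled points sit to the right of the deposited ones.

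Levels of the 9 genes spanned a wide range. At E18.5d the order was *Gyg*, *Pygb*, *Pygm*, *Ugp2*, *Gys1*, *Gbe1*, *Pygl*, *Phka1* and *Phkg1*, and no neighbours in it overlapped. At P1d *Pygb* came before *Gyg*, and *Gys1* and *Gbe1* overlapped. At P7d *Gyg* had dropped to the third place after *Pygb* and *Pygm*, and *Pygl* stood below *Phka1*, with no overlap of neighbours. Across the 9 hearts, which share stage, Pearson's r between *Gyg* and *Pygl* was 0.99, the highest of the 36 pairs of the 9 genes. Between *Gbe1* and *Pygl* it was 0.985, and between *Gyg* and *Gbe1* 0.979. The lowest was -0.93, between *Gyg* and *Pygm*. Of all genes tested, those most like *Gys1* over the 9 hearts were *Amd1* (r = 0.996), *Dctd* (0.993) and *Dcbld2* (0.992). Those most like *Pygm* were the glucose transporter gene *Slc2a4* (0.981), *Smoc2* (0.980) and *Phospho1* (0.974). These correlations describe courses over 3 stages and carry no test.

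The wider pathway was read from a list of 34 further genes, of which 30 passed the filter. From E18.5d to P7d 3 rose and 13 fell by limma (7 and 6 after rescaling by median of ratios), where 12.5% of all genes tested were called higher and 36.9% lower (23.2% and 18.7% after rescaling). The median log2 change of the list was -0.18, beside -0.17 for all genes tested. From E18.5d to P1d 7 rose and 12 fell, beside 18.4% and 27.6% of all genes, and 8 and 10 did after rescaling, beside 23.6% and 22.3%. From P1d to P7d 4 rose and 9 fell, beside 15.5% and 28.6%, and 5 and 4 did after rescaling, beside 23.5% and 18.2%. *Phka2* and *Gaa*, which encodes the lysosomal acid alpha-glucosidase, passed as lower at P7d than at P1d on the deposited scale (adjusted p = 0.0349 and 0.048) and not with median of ratios (0.252 and 0.35). Leaving out 1 heart at a time ended the *Gaa* call in 8 of 9 cases (log2 change -0.31 to -0.14) and the *Phka2* call in 5 of 9 (-0.29 to -0.20).

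*Stbd1*, whose product tethers glycogen to membranes, was at 43.84, 42.28 and 39.84 FPKM at E18.5d, rose to 53.35, 58.61 and 59.08 FPKM at P1d and fell to 14.57, 16.83 and 13.72 FPKM at P7d. No 2 stages overlapped. Its log2 change was 0.43 (adjusted p = 0.00208 by limma) from E18.5d to P1d and -1.86 (adjusted p = 2.36e-06) from P1d to P7d.

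Targeting subunits bring protein phosphatase 1 to the glycogen particle, where it activates glycogen synthase and switches phosphorylase off. Of the 6 tested, 4 fell and 1 rose from E18.5d to P7d, beside 36.9% and 12.5% of all genes. With median of ratios 2 fell and 1 rose, beside 18.7% and 23.2%. *Ppp1r3c* was at 112.81, 106.19 and 109.22 FPKM at E18.5d, 19.72, 28.92 and 23.97 FPKM at P1d and 38.07, 42.65 and 49.48 FPKM at P7d. It fell by 2.15 on the log2 scale at P1d (adjusted p = 4.04e-06 by limma) and rose by 0.83 from P1d to P7d (adjusted p = 0.000954), with no overlap of any 2 stages. *Ppp1r3b* was at 32.43, 35.81 and 32.79 FPKM at E18.5d, 13.24, 13.65 and 12.29 FPKM at P1d and 11.73, 12.85 and 12.38 FPKM at P7d. As with *Gys1*, the E18.5d hearts lay above all later ones and the later stages overlapped. The log2 change of *Ppp1r3b* was -1.30 (adjusted p = 2.19e-06) at P1d and -1.38 (adjusted p = 8.21e-07) at P7d against E18.5d. *Ppp1r3f* was at most 2.5 FPKM in any heart and changed by -0.57 (adjusted p = 0.0253) at P1d against E18.5d. That call was lost in 4 of 9 cases when 1 heart was left out (-0.72 to -0.39), P1d replicate 2 among them (adjusted p = 0.0619), and with the *Xist* covariate (adjusted p = 0.0576).

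The list also held kinases and helpers of the pathway. Of 8 kinase subunits tested, 1 rose and 3 fell from E18.5d to P7d, beside 12.5% and 36.9% of all genes. With median of ratios 4 rose and 1 fell, beside 23.2% and 18.7%. Among the subunits of AMPK, the energy-sensing kinase that phosphorylates glycogen synthase, the alpha genes *Prkaa1* and *Prkaa2* changed by -0.28 (adjusted p = 0.00701 by limma) and -0.44 (adjusted p = 0.00212), and only *Prkaa2* kept its call with median of ratios (-0.24, adjusted p = 0.049). In the same comparison the beta gene *Prkab1* rose by 0.50 (adjusted p = 0.00375), and *Prkab2* changed by -0.47 (adjusted p = 0.00353) from P1d to P7d. *Prkaa1* was lowest at P1d. It changed by -0.56 (adjusted p = 0.000161 by limma) from E18.5d to P1d and by 0.28 (adjusted p = 0.00773) from P1d to P7d. Both of these *Prkaa1* changes passed on either scale. The calmodulin genes *Calm2* and *Calm3* fell at P1d against E18.5d by 0.33 (adjusted p = 0.00192) and 0.39 (adjusted p = 0.000665) in log2 units, and both passed on either scale. *Calm3* rose again by 0.25 from P1d to P7d (adjusted p = 0.00797 by limma). At P7d against E18.5d *Calm2* passed as lower (-0.49, adjusted p = 0.000168) and *Calm3* did not (-0.14, adjusted p = 0.077). *Pgm2l1*, which encodes a glucose 1,6-bisphosphate synthase, changed by -0.49 (adjusted p = 0.00557) at P1d.

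**Figure D4:**
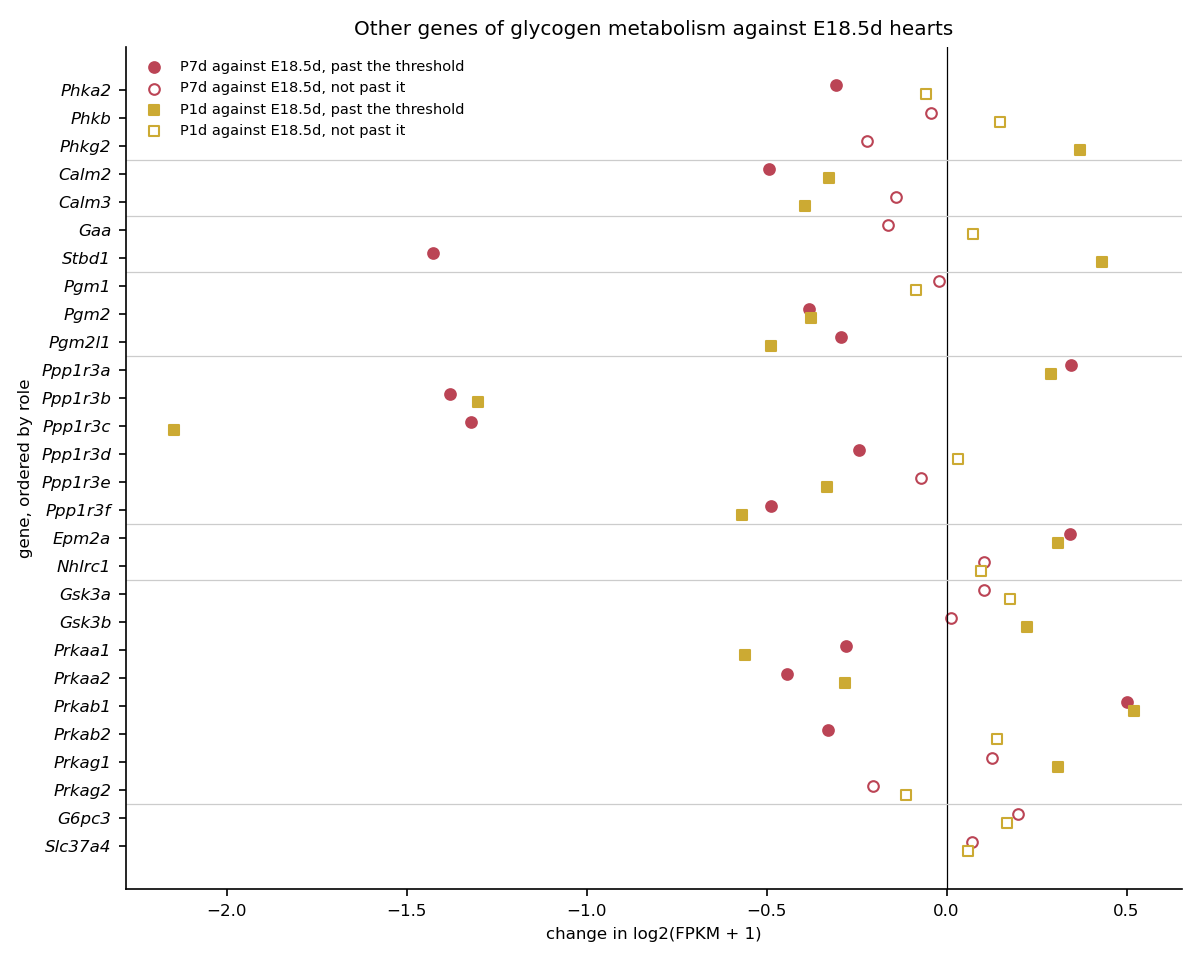
Change in log2(FPKM + 1) of tested genes of the wider list against E18.5d hearts, ordered by role, with circles for P7d and squares for P1d. Filled symbols passed the limma threshold of 0.05 on the adjusted p. Of the genes shown, *Ppp1r3c* lies furthest to the left at P1d (-2.15) and *Stbd1* at P7d (-1.43). The symbols *Pgm1* and *Pgm2* are those of the deposited table.

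Results were also computed without the 4 hearts that had *Xist*, which leaves 1 E18.5d, 3 P1d and 1 P7d heart and assumes that the lone hearts vary like the P1d hearts. The 27 log2 changes of the 9 genes then differed from those of all hearts by 0.00357 to 0.122. Of the calls, *Gyg* (-1.48, adjusted p = 0.0215 by limma) and *Pygl* (-1.65, adjusted p = 0.032) held at P7d against E18.5d. *Gyg* and *Pygl* also held at P7d against P1d, and *Gys1* (-0.79, adjusted p = 0.036) at P1d against E18.5d. With so few hearts 0.683% of all genes tested were called higher and 0.742% lower from E18.5d to P7d, 1.76% and 4.29% from E18.5d to P1d, and 0.551% and 0.764% from P1d to P7d. In the wider list 0 genes rose and 2 fell from E18.5d to P7d, 0 and 3 from E18.5d to P1d, and 0 and 1 from P1d to P7d. With *Xist* as a covariate and all 9 hearts kept, 2 of the 9 genes rose and 5 fell from E18.5d to P7d. These stages hold equally many hearts with *Xist*, so the covariate could not move the log2 changes between them. From E18.5d to P1d 1 rose and 2 fell, and from P1d to P7d 1 rose and 4 fell. The call lost was that of *Phkg1* at P1d (adjusted p = 0.137). In the wider list the covariate left 3 rises and 11 falls, 2 and 9, and 2 and 4 in these comparisons. Of all genes tested it left 12% higher and 35.4% lower, 11.8% and 21.2%, and 10.8% and 17.9%.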

How the data were processed

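RNA-seq was performed on 9 mouse hearts, 3 each at E18.5d, P1d and P7d, grouped as their labels give it. FPKM with 2 decimals were computed and deposited by the authors as 1 table. The submitters' processing notes name STAR and the builds GRCm38 and mm10, and the annotation, the counting tool and the strand setting are not given in the sources used here. Libraries were made with a NEBNext Ultra RNA kit. FPKM depend on gene length and on the composition of each library, so the columns, which summed to 1347980 to 1794160 FPKM, are comparable between stages only as far as that composition is.

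Of the 48820 gene identifiers, 48144 were found in GENCODE M21 (GRCm38) once versions were dropped. The table's *Pgm1* and *Pgm2* are named the other way round in GENCODE M21. Values were transformed to log2(FPKM + 1) and fitted with limma 3.58.1 (R 4.3.3, eBayes with a mean trend), with all hearts in 1 fit and no covariates, over genes whose mean reached 1 FPKM, with p-values adjusted by Benjamini-Hochberg over these genes and called under 0.05. Shares and ratios within a heart were compared by exact two-sided permutation tests in Python 3.11.15 with scipy 1.17.1, which cannot go below 0.1 with 3 hearts against 3. The limma p-values set the difference between stages against the spread between these hearts, moderated over all genes tested. On simulated data of 13618 genes, 200 were raised or lowered by a log2 change of 1 at P7d. Of these, limma called 192 (96%) at P7d against E18.5d, beside 19 unchanged genes. A smaller part of the genes changed than was called in the data, and no scale difference between columns was simulated. The 200 were drawn from genes above a mean level that *Phkg1* did not reach, so recovery of weakly expressed genes was not simulated. Figures were drawn with matplotlib 3.10.9.

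Depth was inferred from steps in the low FPKM values that came out whole within 0.1 fragment, which chance would give for 20% of values. By stage the median depth was 31.0, 28.75 and 41.5 times 1e6 fragments at E18.5d, P1d and P7d, and 1 fragment on 1 kilobase was worth 0.0222 to 0.0392 FPKM.

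The members and lists were chosen with earlier results of these data known. Of the wider list, the named genes are the further isozymes and subunits, *Gaa* and the 12 others with the largest absolute log2 change among those past the threshold whose hearts do not overlap. Of the wider list, 2 genes are in the counts but are not reported here by name. The alternatives changed the pseudocount (0.1), the filter (none, or a mean of 5 FPKM), the scaling (equal column sums, median of ratios, quantile normalization, equal sums of protein-coding nuclear genes), the trend (none), the stages fitted (2 only), the terms (the replicate block, or a covariate for *Xist* above 1 FPKM), the call (an absolute log2 change of 1 or more in addition) and the hearts (without those with *Xist*, and without each heart in turn).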

Additional observations from a re-analysis of the deposited data

How the results depend on the processing

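The replicate numbers did not pair the hearts: deviations of same-numbered hearts from their stage means had correlations of -0.055 to 0.112 (9 pairs), and other pairs -0.182 to 0.129. With the replicate block, 1 of the 9 genes was higher at P1d than at E18.5d in place of 2 (2487 of all 13618 genes), and the other counts stayed within 1.5 times. FPKM carry no counts, so precision at low levels rests on depths inferred from steps in the values.

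At P7d against E18.5d, 2 genes were higher and 5 lower. These became 1 higher with a mean of at least 5 FPKM, which drops *Phkg1*, beside 1264 of all 9130 genes. With an absolute log2 change of at least 1 they became 0 and 2, beside 267 and 383 of all 13618 genes. The fit without the hearts with *Xist*, where fewer hearts remain, is described above. At P1d against E18.5d, 2 higher became 1 with no filter (2510 of all 27255 genes higher) and with a mean of at least 5 FPKM (1933 of 9130). The same held with equal column sums (1175 of 13618) and with the *Xist* covariate (1607 of 13618). The 2 lower became 5 with equal column sums (4694 of all 13618 genes lower), where *Gbe1*, *Pygm* and *Pygl* also passed. With an absolute log2 change of at least 1, 0 were higher and 0 lower, beside 260 and 456 of all 13618 genes. At P7d against P1d, 1 higher became 3 with median of ratios (3194 of all 13618 genes higher) and with equal sums of protein-coding nuclear genes (3293). The cut at an absolute log2 change of 1 left 0 higher and 2 lower, beside 243 and 312 of all 13618 genes. Leaving out each heart in turn gave 2 higher and 4 to 5 lower at P7d against E18.5d. Of all 13618 genes, 1410 to 1842 were then higher and 4058 to 5325 lower. At P1d against E18.5d it gave 1 to 2 higher and 2 to 3 lower. There 1988 to 2646 of all genes were higher and 3065 to 3676 lower. At P7d against P1d it gave 1 to 2 higher and 4 to 5 lower. There 1647 to 2083 of all genes were higher and 3061 to 3821 lower. Apart from the cases explained, the cause was not tested.

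Directions turned only for changes that had not passed the test. For *Gys1* at P7d against P1d the log2 change was 0.0014 with equal column sums, 0.0049 with median of ratios and 0.024 with protein-coding sums. For *Gyg* at P1d against E18.5d it was 0.036 with median of ratios, 0.032 with quantile normalization and 0.0044 with the *Xist* covariate. For *Pygm* in that comparison it was 0.025 with median of ratios. For *Pygb* at P7d against E18.5d it was 0.18 with median of ratios, 0.13 with quantile normalization, 0.13 with protein-coding sums and -0.072 to 0.0077 when each heart was left out. For *Phka1* at P7d against E18.5d it was -0.0099 with equal column sums and -0.018 to 0.072 when each heart was left out. At P1d against E18.5d *Phka1* changed by -0.15 with equal column sums, -0.076 with the *Xist* covariate, -0.068 without the *Xist* hearts and -0.051 to 0.054 when each heart was left out. At P7d against P1d the latter gave -0.028 to 0.080. The *Phka1* share of alpha subunit FPKM differed between P1d and E18.5d by 1.11 percentage points with all hearts, by -0.208 without the *Xist* hearts and by -0.142 to 2.24 when each heart was left out.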

Other observations

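Of the wider list, 4 genes did not pass the filter on low values and were not tested. *Ppp1r3g*, a further glycogen targeting subunit gene that was singled out after its values were seen, was at 1.77, 1.86 and 1.67 FPKM at E18.5d, 0.27, 0.87 and 0.54 FPKM at P1d and 0.49, 0.50 and 0.49 FPKM at P7d, so that all E18.5d hearts lay above all later ones. *Prkag3*, an AMPK gamma subunit gene of skeletal muscle, was at 0.45 to 1.46 FPKM. *G6pc*, which encodes the glucose 6-phosphatase of liver, was at most 0.41 FPKM, in P1d replicate 2, the heart with the highest liver markers. *Gys2* had its highest value, 0.08 FPKM, in the same heart.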
